A study of Rattus norvegicus with 9 samples.

Results

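Thrombin receptors and the genes that start or restrain coagulation at the cell surface were measured in rat primary osteoblasts by RNA sequencing. The set was given by gene symbol and held 10 genes, F2r, F2rl1, F2rl2, F2rl3, F3, Tfpi, Tfpi2, Thbd, Procr and Serpine2, each found in 1 row of a table of 19085 genes. A filter on low counts left 9 of the 10 for testing among 13256 genes; F2rl3 did not pass it.

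Thrombin is a serine protease that signals by cutting the outer end of protease-activated receptors, G protein-coupled receptors that carry their own tethered ligand. F2r encodes PAR1, the main thrombin receptor of most tissue cells, F2rl1 encodes PAR2, which trypsin-like proteases and the tissue factor complex activate, F2rl2 encodes PAR3, which can act as a cofactor, and F2rl3 encodes PAR4, a lower-affinity thrombin receptor. Tissue factor, the product of F3, starts the extrinsic coagulation pathway, and tissue factor pathway inhibitor, from Tfpi, restrains it. Thrombomodulin, from Thbd, binds thrombin and turns it towards activating protein C, which the endothelial protein C receptor, from Procr, presents. Protease nexin, from Serpine2, inactivates thrombin directly. Osteoblasts are known to respond to thrombin through PAR1. In the cells of this study, however, the PAR1 antagonist vorapaxar did not reverse the inhibition of osteogenic markers by thrombin. The study concludes that this inhibition does not depend on PAR1.

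The cells came from the calvaria of newborn male Sprague-Dawley rats according to the growth protocol and the study's methods, although the tissue label names the knee. All 3 groups were kept for 7 days in osteogenic induction medium, with no genetic change. The control group received nothing more, the thrombin group received 20 U/mL thrombin, and the PD03 group received the same thrombin plus the MEK inhibitor PD0325901, named PD03, at 0.1 µM (the unit of the study's methods; a sample protocol writes mM). Each group had 3 libraries, there was no group with PD03 alone, and PD03 therefore differs from control by both agents. Whether the libraries of a group came from separate animals or cultures is not stated beyond the word independent, so p-values measure only the spread between these libraries.

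Library totals were 15447832 to 19841468 counts. The cultures carried Runx2 at 509 to 906 counts in a library and Col1a1 as 4.18% to 6.96% of all counts, whereas the late osteoblast genes Bglap, Ibsp and Dmp1 stayed at or below 5 counts in each library. Of 5 osteoblast markers that passed the filter, Alpl was low, at 6 to 62 counts. In CPM (counts scaled to the size of the library), the 5 differed between groups in different directions. Means in the control, thrombin and PD03 groups were 1.67, 0.345 and 3.11 for Alpl and 47443, 42854 and 72132 for Col1a1. They were 63.7, 185 and 53.1 for Spp1, 42.8, 51.1 and 32.1 for Runx2, and 4.25, 6.20 and 4.95 for Sp7. Markers of blood cells were sparse. Myeloid markers summed to 1.58 to 3.11 CPM and platelet markers to 1.14 to 2.02 CPM. The sum of endothelial markers ranged over 27.4 to 30.7 CPM for control, 33.6 to 35.2 CPM for thrombin and 46.7 to 52.1 CPM for PD03, nearly all from Egfl7 and Tek, with the defining gene Pecam1 at 8 counts or fewer in each library, Tie1 at 1 or fewer, and Cdh5 and Emcn not analysed here. Smooth muscle markers, mostly Acta2, summed to 632 to 733 CPM, 599 to 639 CPM and 1543 to 1580 CPM in the control, thrombin and PD03 groups. The part of these marker differences in the results below was not tested, and in bulk RNA fewer cells of a type and less RNA per cell cannot be told apart.

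A gene was called changed at an adjusted p under 0.05 with an absolute log2 fold change above 0.58, the limits of the study, in edgeR's quasi-likelihood test with Benjamini-Hochberg adjustment over all 13256 genes. With thrombin, 2 of the 9 tested genes rose, Tfpi2 and Procr, and none fell, where 8.06% of all tested genes were called, 2.62% higher and 5.44% lower. At the adjusted p alone, without the fold threshold, 7 of the 9 passed, F2rl2 and Tfpi being the others, against 28.7% of all genes. PD03 against thrombin moved 5 of the 9. F2r and F3 rose and Thbd, Tfpi2 and Serpine2 fell, with 15.9% of all genes called, 9.61% higher and 6.31% lower, and 8 of the 9, F2rl2 only in part of the alternatives, passed on the adjusted p alone against 49.8%. Between PD03 and control 3 of the 9 differed, F2r and F3 higher and Thbd lower, with 8.97% of all genes called, 4.90% higher and 4.07% lower, and 6 passed on the adjusted p alone against 39.9%. Across the 3 groups, a quasi-likelihood test for differences of any kind passed for 8 of the 9, F2rl2 being the exception at an adjusted p of 0.086, where 56.0% of all genes passed. The shares over all genes were not matched for level, and smaller differences pass on the adjusted p alone in genes with more reads. In the control group F2r, F3, Serpine2, Tfpi and Thbd each had a higher level than 88.6% or more of the listed genes. With libraries scaled by their totals in place of TMM, higher genes made up 46.5% in place of 60.4% of the calls for PD03 against thrombin and 34.1% in place of 54.6% for PD03 against control, and the 9 genes kept their directions. The median absolute log2 fold change of the 9 genes was 0.34, 0.59 and 0.34 in the 3 comparisons in that order, and 0.14, 0.24 and 0.19 over all tested genes. The comparisons share libraries in pairs, so their results are not independent of each other.

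**Figure D1:**
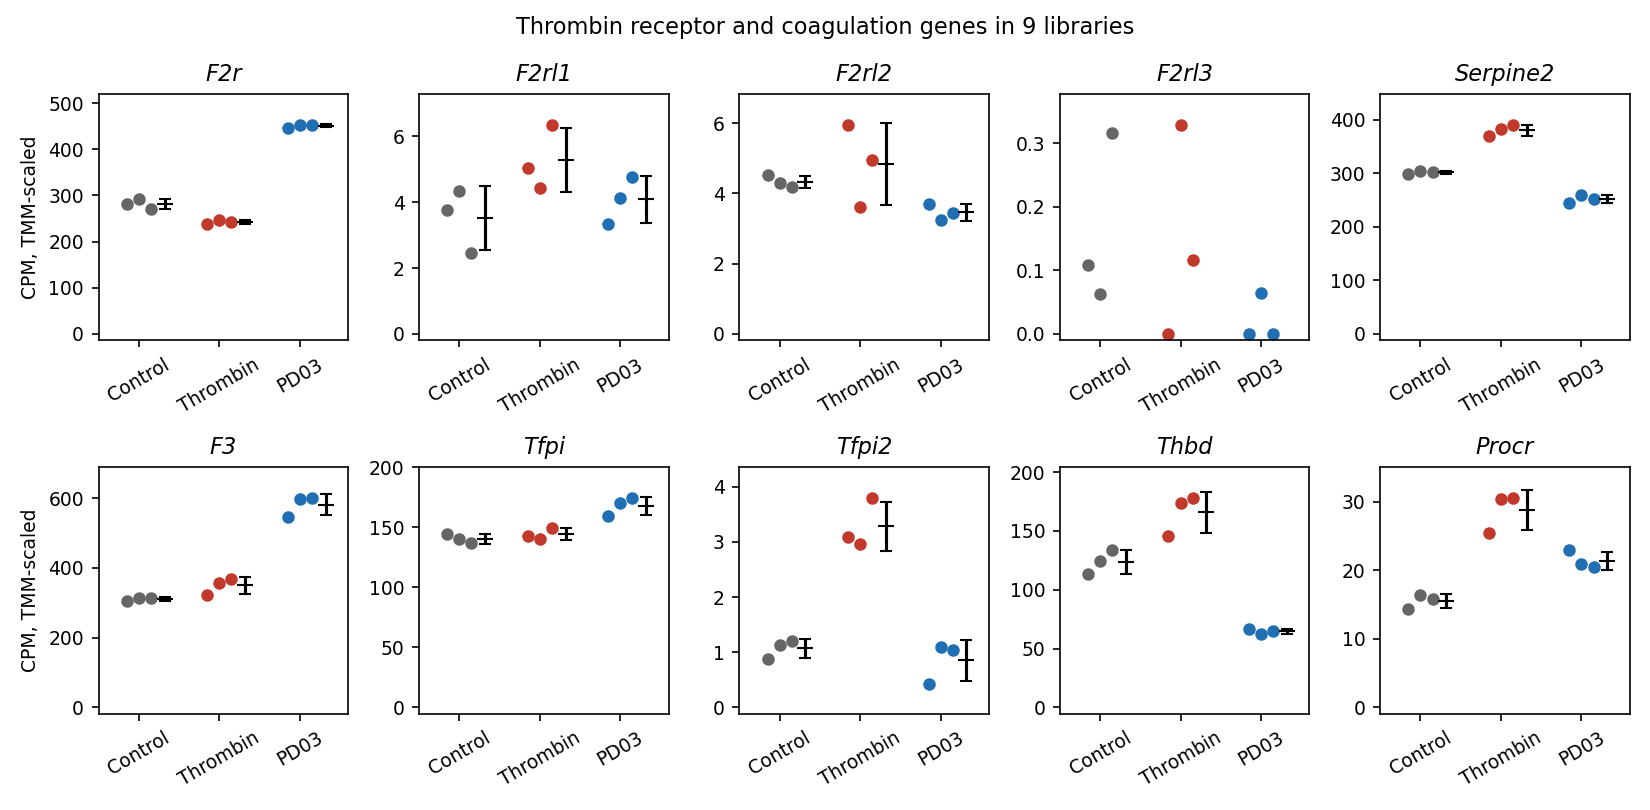
Level of each of the 10 genes in every library, in CPM scaled by TMM (trimmed mean of M-values) on linear axes of different height. Points are libraries and black bars the mean ± SD of 3, left out for F2rl3, which has 6 counts or fewer in each library. F2r and F3 stand highest in the PD03 group, whereas Tfpi2, Procr, Thbd and Serpine2 stand highest in the thrombin group.

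F2r (ENSRNOG00000048043) was the receptor with by far the most RNA, and it was lower with thrombin and higher with PD03. The control libraries held 280.4, 293 and 270.0 CPM (TMM-scaled, here and below), the thrombin libraries 237, 246 and 242 CPM, and the PD03 libraries 447, 453 and 452 CPM. The 3 groups did not overlap, and the PD03 libraries lay within a narrow band. The mean was 281 ± 11.7 CPM in the control, 242 ± 4.52 in the thrombin and 451 ± 3.18 in the PD03 group (SD, n = 3). The log2 fold change with thrombin was -0.22 ± 0.037 (SE; edgeR adjusted p = 1.0e-05), a 0.86-fold level that passed on the adjusted p but not on the fold. F2r was higher in the PD03 than in the thrombin group by 0.90 ± 0.037 (edgeR adjusted p = 1.2e-23), a fold of 1.86. Against the control group, which differs by both agents, F2r was higher by 0.68 ± 0.037 (edgeR adjusted p = 2.6e-19), a fold of 1.60. The last value fell to 0.56, under the fold threshold, when libraries were scaled by their totals, a scaling in which the median of all genes was -0.12. F2r overlaps an annotated long noncoding RNA in RefSeq, and without a stated strand setting their reads cannot be told apart where exons overlap.

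F2rl1 (ENSRNOG00000018003) was a weakly expressed receptor, with 39 to 109 counts in a library. It had 3.75, 4.36 and 2.46 CPM in the control libraries, 5.06, 4.44 and 6.35 CPM in the thrombin libraries and 3.34, 4.14 and 4.77 CPM in the PD03 libraries. Each thrombin library lay above each control library, by a small margin for the closest pair, and the PD03 libraries overlapped both other groups. With thrombin the log2 fold change was 0.578 ± 0.199 (edgeR adjusted p = 0.024), immediately below the threshold of 0.58. It passed in 11 alternatives. They include 5 fits without single libraries and the fit without a fold threshold, where passing followed from the adjusted p. The other alternatives did not pass, among them library totals, at 0.56. Leaving out single libraries moved the log2 fold change from 0.39, without control replicate 3 (edgeR adjusted p = 0.18), to 0.75, without control replicate 2. Without thrombin replicate 3 it was 0.43 (edgeR adjusted p = 0.17). PD03 against thrombin gave -0.38 with a 95% interval of -0.77 to 0.02 (edgeR adjusted p = 0.11), and PD03 against control 0.20 with an interval of -0.22 to 0.62 (edgeR adjusted p = 0.47). PD03 against thrombin moved to -0.22 without thrombin replicate 3 and to -0.24 without PD03 replicate 1. PD03 against control moved to 0.0011 without control replicate 3, 0.07 without PD03 replicate 3, 0.34 without PD03 replicate 1 and 0.36 without control replicate 2.

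F2rl2 (ENSRNOG00000018054) was equally sparse, with 50 to 100 counts in a library. Its mean was 4.33 ± 0.175 CPM in the control, 4.84 ± 1.17 in the thrombin and 3.46 ± 0.236 in the PD03 group (SD, n = 3). The thrombin libraries were spread, at 5.95, 3.62 and 4.95 CPM, beside 4.17 to 4.51 CPM for control and 3.24 to 3.71 CPM for PD03. Thrombin replicates 1 and 3 lay above all libraries of the other groups, and replicate 2 lay within the PD03 range. The gene was not called in any comparison. PD03 against thrombin gave -0.48 ± 0.19 (edgeR adjusted p = 0.036), thrombin against control 0.16 with a 95% interval of -0.22 to 0.53 (edgeR adjusted p = 0.59), and PD03 against control -0.32 with an interval of -0.71 to 0.07 (edgeR adjusted p = 0.20). The difference of PD03 from thrombin rested on single libraries. It was -0.31 (edgeR adjusted p = 0.23) without thrombin replicate 1 and -0.66 (edgeR adjusted p = 0.0052), a call, without thrombin replicate 2, and the adjusted p was 0.080, 0.084 and 0.073 without thrombin replicate 3, PD03 replicate 2 and PD03 replicate 3. DESeq2 gave an adjusted p of 0.056 and limma voom 0.063. In the RefSeq annotation F2rl2 lies inside Iqgap2, whose product is a scaffold protein, and without a stated strand setting reads of the pair cannot be told apart where exons overlap. Iqgap2 had 0.935 ± 0.192 CPM with thrombin and 2.78 ± 0.494 CPM with PD03 (SD, n = 3), a difference opposite in sign to that of F2rl2.

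F2rl3 (ENSRNOG00000068093) was near the detection limit. It had 2, 1 and 5 counts in the control libraries, 0, 6 and 2 in the thrombin libraries, and 0, 1 and 0 in the PD03 libraries, where a count of 0 allows up to 3 counts. The summed counts were 8, 8 and 1 for the 3 groups. The ratio of PD03 to thrombin was 0.129, with an exact 95% interval of 0.0029 to 0.961 that covers counting error only, and the ratio of thrombin to control was 0.959, with an interval of 0.314 to 2.93. When the filter was lifted, the log2 fold change of PD03 against thrombin was -2.56 at an edgeR adjusted p of 0.18, and no difference was called.

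Compared per transcript length, as the deposited FPKM (fragments scaled by library size and gene length), F2r made up nearly all receptor RNA in each library. Its share of the summed FPKM of the 4 receptors was 94.5% ± 0.253 in the control, 92.3% ± 1.33 in the thrombin and 96.9% ± 0.136 in the PD03 group (SD, n = 3). F2r stood at 72.9 ± 3.06 FPKM in the control group, F2rl2 at 2.96 ± 0.147, F2rl1 at 1.22 ± 0.336 and F2rl3 at 0.0966 ± 0.0794. In the control group 95.8% of the listed genes had a lower mean FPKM than F2r, against 50.7% for F2rl2, 42.4% for F2rl1 and 23.5% for F2rl3. F2r, F2rl1 and F2rl2 are near neighbours on chromosome 2 of the RefSeq annotation, and their log2 fold changes with PD03 against thrombin were 0.90, -0.38 and -0.48.

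Serpine2 (ENSRNOG00000015461), which encodes a thrombin-inactivating serpin, was higher with thrombin and lower with PD03. The control libraries held 299, 304 and 302 CPM, the thrombin libraries 370.3, 382 and 391 CPM, and the PD03 libraries 245, 259.8 and 252 CPM. The groups did not overlap. The log2 fold change was 0.34 ± 0.036 with thrombin (edgeR adjusted p = 4.2e-10; a fold of 1.26, not called), -0.595 ± 0.037 for PD03 against thrombin (edgeR adjusted p = 1.2e-17, called) and -0.26 ± 0.037 for PD03 against control (edgeR adjusted p = 2.0e-07, not called). The call lay close to the fold threshold. It was lost without thrombin replicate 3, at -0.578, and without PD03 replicate 1, at -0.575, and glmTreat of edgeR, which tests whether a change exceeds the threshold, gave an adjusted p of 0.96. The difference kept its sign in each of these.

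F3 (ENSRNOG00000011800), the tissue factor gene, had its highest level in the PD03 group. The control libraries held 305, 314 and 313 CPM, the thrombin libraries 322, 357 and 369 CPM, and the PD03 libraries 546, 596 and 599 CPM. No library of the PD03 group came near those of the other groups. The means were 310.4 ± 5.08, 349 ± 24.4 and 581 ± 29.8 CPM (SD, n = 3) in the control, thrombin and PD03 groups. Thrombin alone gave a log2 fold change of 0.17 ± 0.041 (edgeR adjusted p = 0.0013), a fold of 1.13 that was not called. The PD03 group had more F3 than the thrombin group by 0.73 ± 0.041 (edgeR adjusted p = 4.9e-19; a fold of 1.66). Its difference from control, by both agents, was 0.90 ± 0.041 (edgeR adjusted p = 1.1e-21; a fold of 1.87). F3 was thus higher with thrombin plus PD03 than with either the medium alone or thrombin alone.

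Tfpi (ENSRNOG00000005039), the inhibitor of the tissue factor complex, varied little. It ranged over 136 to 145 CPM in the control, 140.2 to 149.5 CPM in the thrombin and 159 to 174 CPM in the PD03 group, and the control and thrombin libraries overlapped. The log2 fold change with thrombin was 0.04, with a 95% interval of -0.05 to 0.13 (edgeR adjusted p = 0.59). PD03 gave 0.22 ± 0.043 over thrombin (edgeR adjusted p = 4.7e-05) and 0.25 ± 0.044 over control (edgeR adjusted p = 6.1e-06), neither past the fold threshold. With library totals these were 0.12 (edgeR adjusted p = 0.020) and 0.14 (edgeR adjusted p = 0.0086). Tfpi overlaps an annotated long noncoding RNA, with which its reads may be shared.

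Tfpi2 (ENSRNOG00000010513), which encodes a secreted Kunitz-type protease inhibitor related to Tfpi, had the largest fold changes of the 9 tested genes with thrombin and with PD03 against thrombin, on few counts. The control libraries held 16, 18 and 19 counts, the thrombin libraries 52, 54 and 65, and the PD03 libraries 8, 17 and 17. On the CPM scale these were 0.870, 1.14 and 1.20 in the control, 3.09, 2.96 and 3.79 in the thrombin, and 0.424, 1.10 and 1.04 in the PD03 group. All thrombin libraries lay above all others, and the control and PD03 libraries overlapped. The gene rose with thrombin by 1.62 ± 0.30 (edgeR adjusted p = 3.0e-05; a fold of 3.07) and fell with PD03 against thrombin by 1.96 ± 0.31 on the log2 scale (edgeR adjusted p = 8.5e-07). PD03 against control gave -0.34 with a 95% interval of -1.09 to 0.40 (edgeR adjusted p = 0.49), and 0.01 without PD03 replicate 1.

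Thbd (ENSRNOG00000004687), the thrombomodulin gene, was lower with PD03 than in both other groups. The control libraries held 114, 124 and 134 CPM, the thrombin libraries 146, 174 and 178 CPM, and the PD03 libraries 66.5, 62.5 and 64.8 CPM. The groups did not overlap, and the PD03 libraries were the closest to each other. The mean was 124 ± 10.2 in the control, 166 ± 17.3 in the thrombin and 64.6 ± 2.00 CPM in the PD03 group (SD, n = 3). With thrombin the log2 fold change was 0.42 ± 0.055 (edgeR adjusted p = 5.2e-08), a fold of 1.34 that was not called. PD03 gave -1.36 ± 0.059 against thrombin (edgeR adjusted p = 7.5e-23), a 0.390-fold level, and -0.94 ± 0.060 against control (edgeR adjusted p = 6.6e-17), a 0.522-fold level.

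Procr (ENSRNOG00000019330), the endothelial protein C receptor gene, rose with thrombin. The control libraries held 14.3, 16.4 and 15.9 CPM, the thrombin libraries 25.4, 30.4 and 30.5 CPM, and the PD03 libraries 22.9, 20.9 and 20.4 CPM. The 3 groups did not overlap and the PD03 group lay between the others. The log2 fold change with thrombin was 0.90 ± 0.089 (edgeR adjusted p = 5.0e-11; a fold of 1.86). PD03 gave -0.42 ± 0.085 against thrombin (edgeR adjusted p = 4.9e-05) and 0.47 ± 0.092 against control (edgeR adjusted p = 5.2e-05), both short of the fold threshold.

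**Figure D2:**
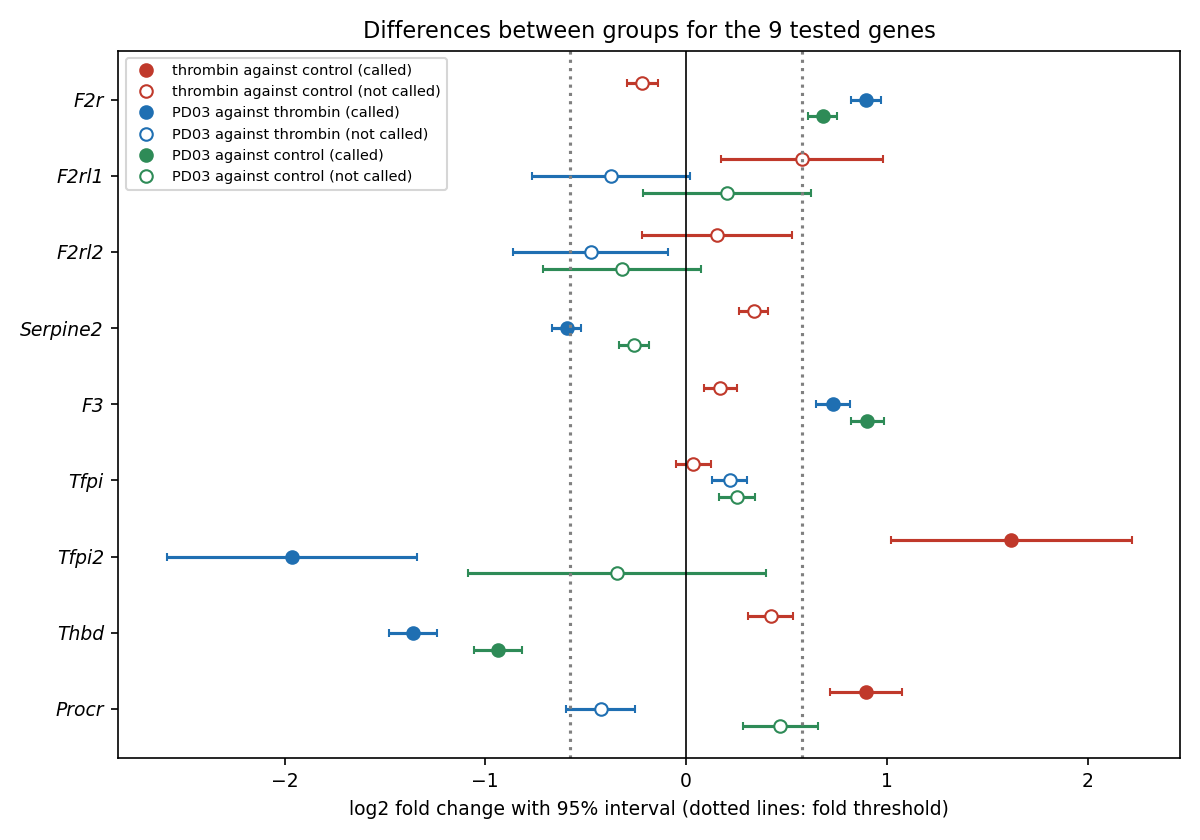
Log2 fold change with its 95% interval for the 9 tested genes in the 3 comparisons, with filled points for called genes and dotted lines at the fold threshold of 0.58. F2r and F3 lie to the right with PD03 against thrombin, at 0.90 and 0.73, and Thbd and Tfpi2 to the left, at -1.36 and -1.96, whereas Tfpi2 and Procr lie to the right with thrombin, at 1.62 and 0.90.

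Thbd and Procr, which act in the same protein C pathway, thus had their own patterns. With PD03 against control Thbd gave -0.94 and Procr 0.47 on the log2 scale. The ratio of Thbd to Procr FPKM within a library was 2.95 ± 0.155 in the control, 2.12 ± 0.0219 in the thrombin and 1.11 ± 0.0497 in the PD03 group (SD, n = 3). The ratio of F3, which starts coagulation, to Thbd, which diverts thrombin from it, was 3.18, 2.99 and 2.77 in the control libraries, 2.62, 2.44 and 2.47 in the thrombin libraries, and 9.75, 11.3 and 10.96 in the PD03 libraries. The ratio of F3 to its inhibitor Tfpi varied less between the groups, at 2.42 ± 0.104, 2.65 ± 0.163 and 3.78 ± 0.0448. F2r against Serpine2, a receptor for thrombin against an inhibitor of thrombin, stood at 0.541 ± 0.0204, 0.369 ± 0.00768 and 1.04 ± 0.0233. These ratios were chosen after the levels had been seen and are given without a test.

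**Figure D3:**
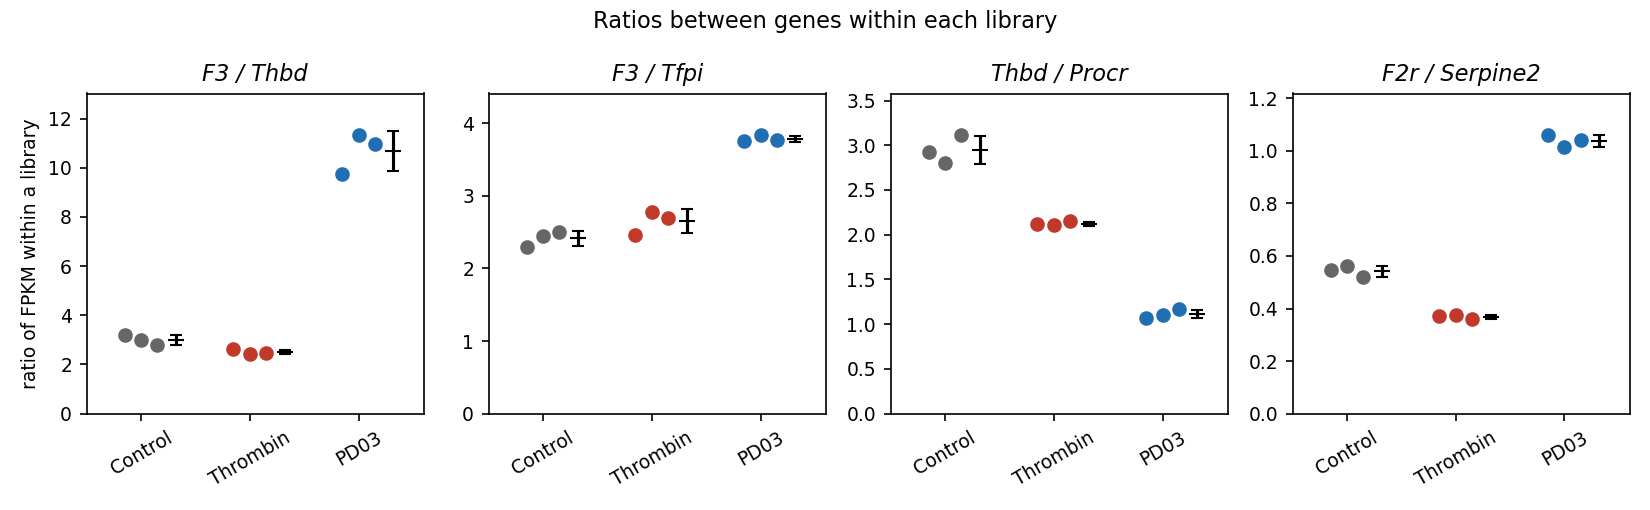
Ratio of the FPKM of 2 genes within each library, for 4 pairs on linear axes, with points for libraries and black bars for the mean ± SD of 3. The F3 to Thbd ratio stands at 9.75 to 11.3 in the PD03 group and at 2.44 to 3.18 in the other libraries.

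By level per length, Serpine2 led in the control and thrombin groups, at 135 ± 0.601 and 168 ± 4.19 FPKM, followed by F3 at 87.1 ± 0.618 and 96.9 ± 6.59 FPKM and by F2r at 72.9 ± 3.06 and 61.9 ± 1.12 FPKM. In the PD03 group F3 led at 150.3 ± 7.65 FPKM, and F2r, at 107 to 109 FPKM, and Serpine2, at 101 to 107 FPKM, overlapped. Tfpi, Thbd and Procr followed in the control and PD03 groups in that order without overlap. In the thrombin group Thbd, at 38.7 ± 3.97 FPKM, and Tfpi, at 36.6 ± 1.16 FPKM, overlapped. F2rl2, F2rl1, Tfpi2 and F2rl3 were below 5 FPKM in each library. Among these, F2rl1 and Tfpi2 overlapped in the control group, and F2rl2 and Tfpi2 in the thrombin group.

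Promoter windows from RefSeq (build GRCr8), the 250 bases before the annotated start, were at hand for 7 of the 10 genes. They are shown 5′ to 3′ on the gene's strand for F2r and Tfpi2, called in more than 1 comparison, and for Procr, added after its values were seen because it rose with thrombin as Tfpi2 did. F2r lies at chr2:28620580-28620829 on the minus strand, Tfpi2 at chr4:32941277-32941526 on the minus strand and Procr at chr3:164714477-164714726 on the plus strand. Capitals mark TGANTCA, the letters bound by AP-1, the Fos and Jun factors that act downstream of ERK.
F2r promoter: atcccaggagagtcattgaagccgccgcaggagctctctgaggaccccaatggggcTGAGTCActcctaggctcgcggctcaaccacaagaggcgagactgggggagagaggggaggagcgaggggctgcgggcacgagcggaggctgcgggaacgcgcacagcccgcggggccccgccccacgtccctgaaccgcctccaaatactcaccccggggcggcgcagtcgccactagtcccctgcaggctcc
Tfpi2 promoter: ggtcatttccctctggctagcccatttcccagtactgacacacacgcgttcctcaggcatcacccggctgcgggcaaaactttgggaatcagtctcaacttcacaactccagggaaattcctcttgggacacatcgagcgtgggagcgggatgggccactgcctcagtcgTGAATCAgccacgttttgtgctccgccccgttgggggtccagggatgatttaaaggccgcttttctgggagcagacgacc
Procr promoter: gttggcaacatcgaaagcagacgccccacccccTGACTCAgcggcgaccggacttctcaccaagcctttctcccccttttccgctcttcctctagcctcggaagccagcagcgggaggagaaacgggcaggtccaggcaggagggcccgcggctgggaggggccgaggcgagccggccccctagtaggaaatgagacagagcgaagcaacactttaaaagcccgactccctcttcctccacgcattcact
The AP-1 letters begin 194 bases before the start in F2r, 80 bases before it in Tfpi2 and 217 bases before it in Procr. On either strand, they were found in 4 of the 8 windows of these 7 genes, the last being F2rl2, and in 6.34% of 33469 windows of the same length in the table. The Krüppel-like factor letters CACCC were in 7 of the 8 windows and in 49.2% of all windows, and a wide NF-κB-like pattern, overlapping no AP-1 letters in the windows shown, was in 4 of 8 and in 42.3%. No window of the set held the Egr1 letters GCGTGGGCG (0.478% of all), a CArG box (1.50%) or a narrow NF-κB-like pattern (1.30%). A match describes letters, not binding.

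Other genes of the same pathways were read from 7 lists of 80 genes in all, beside a readout of MEK activity given last, of which 74 were in the table and 58 were tested. With thrombin 1 was called higher and 3 lower (6.90%, beside 8.06% of all tested genes), with PD03 against thrombin 7 and 7 (24.1%, beside 15.9%), and with PD03 against control 3 and 3 (10.3%, beside 8.97%). The balance of directions depended on the scaling. With library totals 5 were higher and 8 lower for PD03 against thrombin, and 1 higher and 8 lower for PD03 against control.

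Most circulating factors had little RNA in these cultures, with factor VIII the exception. Of 14 coagulation factor and fibrinogen genes, 10 were listed and 3 tested, F5, F8 and Vwf, and none of the 3 was called in the 3 comparisons, with log2 fold changes of -0.55 to 0.16. F8 had 37.8 ± 3.29, 36.8 ± 2.23 and 40.8 ± 3.08 CPM in the control, thrombin and PD03 groups (SD, n = 3). F2, which encodes prothrombin and is named for that reason, had 5 counts or fewer in each library. Among 6 genes of the vitamin K cycle and of factor V and VIII transport, 0 were called with thrombin and 1 rose with PD03 against thrombin. It was Vkorc1, the vitamin K epoxide reductase, from 39.4 ± 2.43 to 63.8 ± 3.41 CPM (SD, n = 3; log2 fold change 0.70, edgeR adjusted p = 5.0e-13).

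Among the 4 tested genes of a mixed list of the protein C pathway and protease inhibitors, 2 fell with thrombin and 3 rose with PD03 against thrombin. The list's median log2 fold change was -0.76 with thrombin and 1.05 with PD03 against thrombin, beside -0.01 and 0.01 over all tested genes. Serpini1, which encodes neuroserpin, an inhibitor of plasminogen activators, had the largest change, so the median does not describe the protein C pathway alone. A2m was called as well, at -1.05 ± 0.092 with thrombin and 1.46 ± 0.089 for PD03 against thrombin. Pros1 was called for PD03 against thrombin only, at 0.65 ± 0.051. Serpini1 had only 12 to 16 counts in the thrombin libraries. Its levels were 2.80 ± 0.159, 0.783 ± 0.0894 and 4.53 ± 0.114 CPM in the control, thrombin and PD03 groups (SD, n = 3). Its log2 fold changes were -1.82 ± 0.27 with thrombin (edgeR adjusted p = 6.5e-07), 2.52 ± 0.25 for PD03 against thrombin (edgeR adjusted p = 2.4e-11) and 0.69 ± 0.20 for PD03 against control (edgeR adjusted p = 0.00555).

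Of 7 tested genes for phosphatidylserine exposure and shielding, the membrane step on which clotting complexes assemble, 0 were called with thrombin and 2 fell with PD03 against thrombin. Plscr1, a phospholipid scramblase family gene, fell most, from 9.13 ± 2.40 to 3.51 ± 0.311 CPM (log2 fold change -1.38, edgeR adjusted p = 4.2e-09). Of 11 genes for making or carrying heparan sulfate, 0 were called with thrombin and 1 fell with PD03 against thrombin. It was the cell-surface proteoglycan gene Sdc4, from 320.5 ± 27.9 to 203 ± 21.3 CPM (log2 fold change -0.66, edgeR adjusted p = 5.4e-14). The anticoagulant form of heparan sulfate itself was not measured.

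Among 19 tested G proteins and receptor regulators, 1 rose with thrombin, and 3 rose and 2 fell with PD03 against thrombin, with list medians of -0.03 and -0.03. Arrb1, which encodes a β-arrestin that desensitises receptors, rose with thrombin from 6.67 ± 0.424 to 11.8 ± 1.99 CPM (log2 fold change 0.82, edgeR adjusted p = 5.3e-06). With PD03 against thrombin, Arrb1 was among those that fell, to 4.48 ± 0.295 CPM (log2 fold change -1.40, edgeR adjusted p = 5.4e-11). Rgs4, a regulator that shortens Gq and Gi signalling, went from 1.94 ± 0.510 CPM with thrombin to 16.2 ± 1.63 CPM with PD03 (log2 fold change 3.04 ± 0.17, edgeR adjusted p = 3.5e-19), the largest in the lists for this comparison. It was also higher with PD03 than in the control group, by 3.13 ± 0.17 (edgeR adjusted p = 4.6e-19). Rgs2, another regulator of this family in the list, went the other way. Its means were 118 ± 4.75, 105 ± 6.25 and 45.2 ± 3.71 CPM in the control, thrombin and PD03 groups (SD, n = 3). With PD03 its log2 fold change was -1.21 against thrombin (edgeR adjusted p = 1.8e-21) and -1.39 against control (edgeR adjusted p = 3.9e-23).

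Of 8 tested genes in a list of other proteases, 1 fell with thrombin and 2 fell with PD03 against thrombin. Whether each of their products cuts the receptors was not examined. Mmp13, a collagenase, fell with thrombin from 12.3 ± 3.19 to 6.62 ± 0.421 CPM (log2 fold change -0.90, edgeR adjusted p = 4.2e-06) and was lowest in the PD03 group, at 3.72 ± 0.148 CPM (against control, log2 fold change -1.73, edgeR adjusted p = 6.7e-12). Plau, the urokinase gene, fell with PD03 against thrombin from 13.7 ± 1.58 to 6.70 ± 0.831 CPM (log2 fold change -1.04, edgeR adjusted p = 2.4e-09).

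The MEK readout, 5 genes known to follow ERK activity, served as a check of the inhibitor. All 5, Dusp6, Spry2, Spry4, Etv4 and Etv5, fell with PD03 against thrombin and against control, and none was called with thrombin. The list median was -0.31 with thrombin, -1.18 for PD03 against thrombin and -1.70 for PD03 against control. With thrombin, Dusp6 (-0.40, edgeR adjusted p = 0.00085), Spry2 (-0.31, edgeR adjusted p = 0.00061) and Etv5 (-0.52, edgeR adjusted p = 1.1e-05) passed on the adjusted p but not on the fold. Etv4 had the largest drop against thrombin, from 14.5 ± 0.653 to 2.37 ± 0.430 CPM (log2 fold change -2.62, edgeR adjusted p = 1.3e-18), and Dusp6 the largest against control, from 30.4 ± 1.35 to 4.32 ± 1.05 CPM (log2 fold change -2.80, edgeR adjusted p = 2.0e-22).

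**Figure D4:**
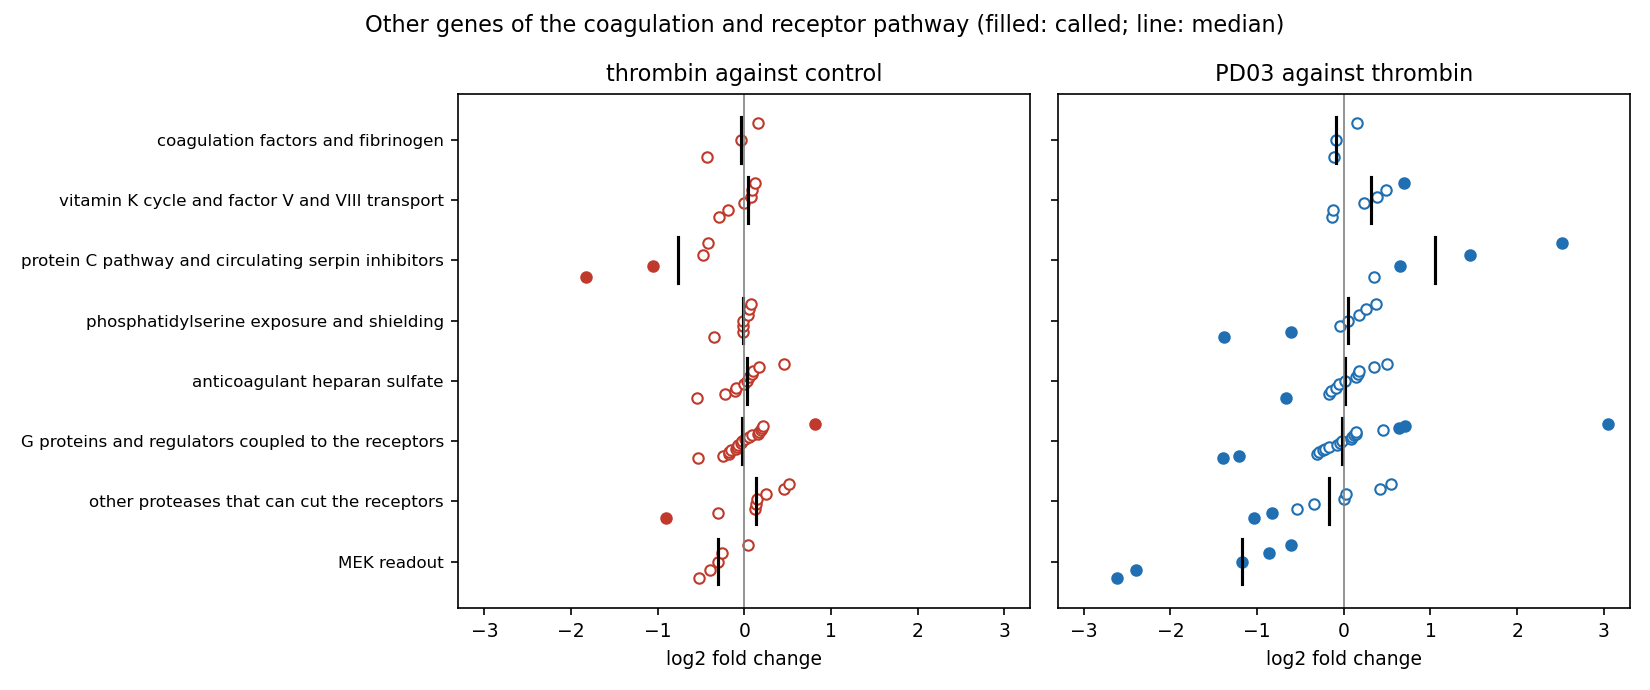
Log2 fold change of the tested genes of the 7 pathway lists and the MEK readout with thrombin against control (left) and with PD03 against thrombin (right). Points are genes, filled where called, and the black line is the median of a list. All 5 genes of the MEK readout lie to the left with PD03 against thrombin, between -2.62 and -0.61.

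The genes most like F2r, F3 and Thbd across the 9 libraries were taken from 8859 genes by Pearson's r of the log2 CPM, given as a description since the libraries fall into 3 groups. For F2r they were Id4, Tmem59 and Scpep1 (r = 0.997, 0.996 and 0.996). For F3 they were Dstn, Antxr1 and Col5a2 (r = 0.997, 0.992 and 0.992). For Thbd they were Wdr90, Eif4h and Rpl3 (r = 0.996 for each).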

How the data were processed

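RNA of 9 libraries, 3 for each of 3 groups, was sequenced by the study. The deposited table holds the raw read counts of each gene, which the authors made by aligning the reads and counting them, and the deposited FPKM values, which the authors scaled by library and gene length. The study's methods name HISAT2 with featureCounts and the build Rnor_6.0, whereas the submitters' processing notes name HISAT2, HTSeq (0.13.5) and mRatBN7.2, so the counter and build are not settled, and a strand setting is not stated. The labels give the PD03 dose in another unit in a protocol than the study's methods, whose unit is used here. All 9 libraries entered 1 fit. Genes passing edgeR's filter at a minimum count of 10 were kept (13256 of 19085; 2048 rows have no symbol), scaled by TMM, and tested with glmQLFit and glmQLFTest in edgeR (4.0.16) under R (4.3.3), with p-values adjusted over all tested genes. DESeq2 (1.42.0), limma (3.58.1) voom, other scalings, filters and thresholds, the FPKM on a log2 scale with 1 or 0.1 added, and fits without single libraries were alternatives. The scripts were tested on simulated data. Levels are compared between genes as FPKM and between groups as CPM. The biological coefficient of variation was 4.28%.

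The members and lists were chosen with earlier results of these data known. Named genes were all members and, in each list and comparison, the called gene with the largest absolute log2 fold change among those whose better expressed group averaged 1 CPM or more. Rgs2, A2m and Pros1 were named in addition, after their values had been seen. Promoters came from RefSeq (GRCr8), and motifs were searched on both strands. Other annotation for F2rl1, F3 and Thbd promoters and protein sequences was not used here. Over all tested genes, same-numbered libraries did not deviate together (correlations of -0.05 to 0.05). For F3 and Serpine2, however, replicate 1 was the lowest library of each group. The labels do not say what a shared number means, so numbers were not treated as pairs in the main fit. A fit with the number as a block was an alternative.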

Additional observations from a re-analysis of the deposited data

How the results depend on the processing

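Of the values recomputed under the alternatives, 581 kept their direction and their side of the thresholds, 22 passed a threshold they had missed, 13 no longer passed and 2 turned in direction. Changing the fold threshold moved the counts most, by construction. With no fold threshold 7, 8 and 6 of the 9 genes were called with thrombin, with PD03 against thrombin and with PD03 against control, and with a log2 fold above 1 the counts were 1, 2 and 0. A mean count of at least 50 gave 1 with thrombin, since Tfpi2 was then not tested. Leaving out single libraries gave 2 to 3, 4 to 6 and 3 to 3 called genes. Without thrombin replicate 1, F2rl2 with thrombin turned to -0.0147 (range -0.0147 to 0.33), and without PD03 replicate 1, Tfpi2 with PD03 against control turned to 0.0119 (range -0.57 to 0.0119). The cause was not tested. Scaling by library totals moved the median of all genes for PD03 against thrombin from 0.01 to -0.09 and took F2r with PD03 against control under the fold threshold, at 0.56, as did the FPKM. F2rl1 with thrombin passed under DESeq2 at 0.59 and limma voom at 0.59. Adding the replicate number as a replicate block left the counts at 2, 5 and 3, and 2 of 9 libraries correlated best with their own number. Depth limits F2rl3, F2rl1, F2rl2 and Tfpi2.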
